A study of Mus musculus with 6 samples.

Results

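Snord59a, Scarna6, Mir5125 and Mir1970 are annotated small RNA genes that each lie within a larger protein-coding gene, the host. They were chosen by name from a deposited table of 680 genes, in which each had 1 row matched through its Ensembl identifier to GENCODE M21, and all 4 are described here. The table came from MC3T3 cells, a mouse pre-osteoblast line grown in culture, whose cell type the labels give as stem cells. The exosome group comprised 3 libraries from cells treated for 48 hours with HUVEC-derived exosomes, small vesicles released by human umbilical vein endothelial cells, and the control group comprised 3 libraries from untreated cells. The comparison asks how these exosomes alter RNA levels in the cells. The labels name no genetic change in either group. Each title has a biological repeat number, but separate cultures are not mentioned, so each p-value reflects only how far these 6 libraries vary.

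Small RNAs of this kind are often encoded in introns, the parts of a primary transcript that splicing removes. Small nucleolar RNAs (snoRNAs) of the C/D class pair with ribosomal RNA and direct its 2′-O-methylation, and small Cajal body RNAs (scaRNAs) direct modification of the small nuclear RNAs of the spliceosome. Intronic forms of both are trimmed out of the excised intron, so that host mRNA and small RNA derive from the same primary transcript. MicroRNAs (miRNAs) are cut from a hairpin precursor and repress mRNAs that pair with their seed, bases 2 to 8 of the mature strand.

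The sequences below show what the 4 rows of the table stand for. The snoRNA and the scaRNA are printed whole from the GENCODE M21 transcripts (GRCm38), with the first TGATGA and the last CTGA in capitals, the letters by which the C and D boxes of such RNAs are recognised.
Snord59a: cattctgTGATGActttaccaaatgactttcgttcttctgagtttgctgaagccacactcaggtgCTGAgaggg
Scarna6: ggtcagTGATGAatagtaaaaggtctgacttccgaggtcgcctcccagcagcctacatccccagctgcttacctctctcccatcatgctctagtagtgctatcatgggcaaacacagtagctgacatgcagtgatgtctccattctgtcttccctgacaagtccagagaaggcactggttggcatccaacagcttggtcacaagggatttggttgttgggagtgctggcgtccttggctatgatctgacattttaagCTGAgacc
The miRNA hairpins are those of RefSeq (GRCm38.p6), which span the same bases as the GENCODE genes and have the same letters, with the mature miRNA in capitals.
Mir5125: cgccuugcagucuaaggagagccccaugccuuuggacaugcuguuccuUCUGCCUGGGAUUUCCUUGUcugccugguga
Mir1970: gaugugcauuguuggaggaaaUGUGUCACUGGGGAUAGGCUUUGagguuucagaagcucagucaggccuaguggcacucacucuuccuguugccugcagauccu
The mature strands follow with the seed in capitals, together with the only other mature miRNA of the RefSeq table that carries either seed.
mmu-miR-5125: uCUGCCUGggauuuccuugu
mmu-miR-1970: uGUGUCACuggggauaggcuuug
mmu-miR-1970c-5p: uGUGUCACugggguuaugcuuug

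The seeds of both miRNAs differ. Among 1679 mature mouse miRNAs in that table none shared the seed of mmu-miR-5125 and 1 shared that of mmu-miR-1970. TGATGA starts at base 8 of Snord59a and at base 7 of Scarna6, and CTGA at base 66 and base 258. A TGATGA followed without overlap by a CTGA, searched on the strand of the RNA, was present in 24.0% of 1507 annotated snoRNA transcripts and in 27.5% of 51 scaRNA transcripts. The reads of the deposited table were counted over these whole annotated loci. A value for Mir5125 or Mir1970 is thus that of the hairpin locus, and the mature strand was not measured apart from it. The libraries were built with an mRNA kit, and how well it captures RNAs this short was not tested. Values below therefore describe reads on each locus and not the level of the trimmed small RNA.

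All 4 loci lay in an intron and overlapped no annotated exon of the host. Snord59a occupies chr10:128084143-128084216 on the plus strand (74 bases), in intron 2 of Atp5b, the beta subunit of mitochondrial ATP synthase, on the host's own strand. That intron has 222 bases and leaves 68 between the upstream exon and the locus and 80 between the locus and the downstream exon. The human counterpart of this snoRNA is known as a guide for methylation of small-subunit ribosomal RNA. Scarna6 occupies chr1:87784556-87784820 on the plus strand (265 bases), in intron 12 of Atg16l1, a gene required for autophagosome formation, in an intron of 4133 bases on the same strand. Its human counterpart guides modification of a spliceosomal small nuclear RNA. Mir5125 occupies chr17:23823291-23823369 on the plus strand (79 bases), in intron 12 of Srrm2, which encodes a splicing protein of nuclear speckles. That intron has 1090 bases, and the hairpin starts 590 bases after the upstream exon and ends 421 bases before the downstream one. Mir1970 occupies chrX:135786114-135786217 on the minus strand (104 bases) and is the exception in strand, since its host Gprasp1, which encodes a sorting protein for G protein-coupled receptors, is transcribed from the plus strand. Its intron is intron 4, of 44124 bases. Intron numbers are those of a coding transcript that spans the locus, a principal transcript where any spans it. Spanning transcripts were 1 of 9 in Atp5b, 6 of 11 in Atg16l1, 2 of 12 in Srrm2 and 3 of 6 in Gprasp1.

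**Figure D1:**
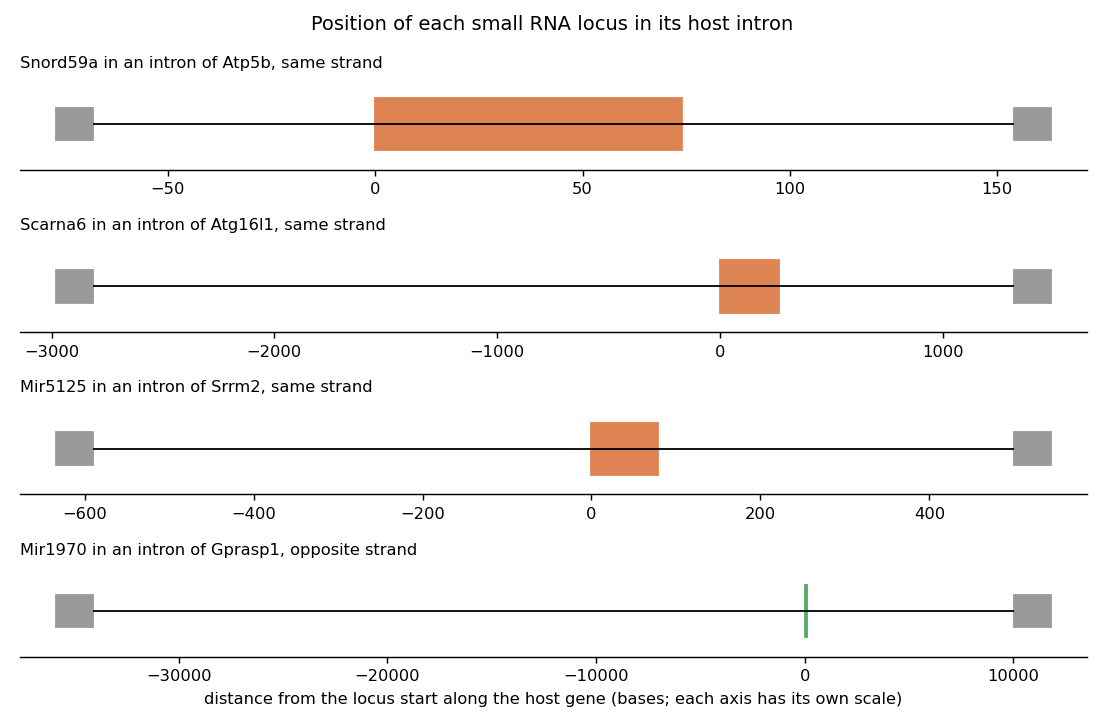
Each row draws the host intron (black line) between parts of its neighbouring exons (grey, not to scale), with the small RNA locus as a box, against distance in bases along the host gene. Snord59a fills 74 of the 222 bases of its intron, whereas Mir1970, on the opposite strand (green), has 104 bases in an intron of 44124.

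None of the 4 host genes is among the 680 genes of the table, so locus and host could not be set side by side in these libraries. Atp5b also encloses Mir677, annotated both as a miRNA and as a snoRNA, Atg16l1 encloses the scaRNA model Gm25395 and Gprasp1 encloses Mir7646, and none of these has a row in the table either. The table holds only genes that the authors had called changed, and a missing row gives no level.

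The depth of the libraries, recovered from the steps in the FPKM values (fragments scaled to exon length and to library size), was 51315986 to 54429032 reads in the exosome group and 39630444 to 48369052 in the control group. For all 4 loci, FPKM times locus length gave whole reads within 0.02 in every library. Among the 1691 values of the whole table that came to between 2 and 21 reads, 74.7% were even numbers. Both reads of a pair may thus have been counted, in which case the counting intervals below, exact Poisson intervals at 95%, are too narrow. They cover counting error only. At the 4 loci odd counts were common too, as in Mir5125, with 541, 517, 881 and 781 reads beside 326 and 262. Whether pairs were counted there was not tested. Of 10 pre-osteoblast markers only Dmp1 and of 8 endothelial markers none is in the table, so the labelled cell type could not be checked. Because the 680 rows were selected as changed on these same libraries, every p-value below is too small as a measure of significance.

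All 4 loci had lower values with exosomes than in control cells, and in each the highest exosome library lay below the lowest control library. Over the whole table the groups did not overlap with exosomes lower in 64.1% of the rows. Among the 189 rows of non-coding classes, pseudogenes included, that lie inside another gene, 150 were lower without overlap. By limma on log2(FPKM + 1), adjusted over all 680 genes, 4 of 4 loci fell with an adjusted p under 0.05, where 43.8% of the table was called lower and 59.3% was called in either direction. Fewer cells with such RNA and less RNA per cell cannot be told apart in these bulk libraries. The median difference of the 4 loci on that log2 scale was −1.15, beside −0.13 over all rows. That scale compresses weak genes, and most of the table is weak: the median of the row means was 0.110 FPKM with exosomes and 0.244 FPKM in control cells, against 2.15 and 6.26 FPKM for the 4 loci, so the medians of the log2 differences are not comparable as folds. Centring each library on its median moves all differences by 0.15 and leaves them at −1.66 for Snord59a, −0.35 for Scarna6, −1.09 for Mir5125 and −0.92 for Mir1970. Snord59a and Mir1970 then missed the threshold (limma adjusted p = 0.0563 and 0.0662). That median is taken over the 680 selected rows, of which 503 were lower, and not over all expressed genes. How far the shift comes from this selection was not tested. Over the table, 298 genes were called lower and 105 higher before centring, and 112 lower and 212 higher after it. The exact permutation test of each locus gave p = 0.1, two-sided, which is the smallest that 3 libraries against 3 can give.

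Snord59a, the methylation guide, had 0.259, 2.73 and 0 FPKM in exosome libraries 1, 2 and 3, against 7.16, 3.72 and 4.19 FPKM in control libraries 1, 2 and 3. These values rest on 1, 11 and 0 reads with exosomes and on 21, 12 and 15 reads in control cells. Exosome library 2 stood apart from the other exosome libraries and came close to the control libraries. Its counting interval, 1.36 to 4.89 FPKM, overlapped those of control libraries 2 (1.92 to 6.50 FPKM) and 3 (2.35 to 6.91 FPKM) and, narrowly, that of control library 1, which began at 4.43 FPKM. In exosome library 3, with no read, the interval reached 0.971 FPKM. The mean was 0.997 ± 1.51 FPKM with exosomes and 5.02 ± 1.86 FPKM in control cells (SD, n = 3 each), a 5.04-fold lower mean. The exosome mean rests largely on library 2, and without it was 0.130 FPKM, 38.8-fold below the control mean. That fold is poorly determined. It rests on 1 read in exosome library 1 and 0 in library 3, where the counting intervals reached 1.44 and 0.971 FPKM. The log2 difference was −1.80 ± 0.56, with a limma adjusted p of 0.0403 (SE). Leaving out exosome library 1 or 3 ended the call (limma adjusted p = 0.108 and 0.102), as did leaving out control library 1, 2 or 3 (0.104, 0.0791 and 0.0813), and without exosome library 2 the difference was −2.38 (0.0258).

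Scarna6, the Cajal body RNA, was listed at 0 in every exosome library, against 0.381, 0.260 and 0.624 FPKM in control libraries 1, 2 and 3. The control values rest on 4, 3 and 8 reads, 15 in all, and there was none over the 3 exosome libraries. Scarna6 was at least 6.00-fold lower with exosomes, in reads set against depth, if 3 reads is the limit for the exosome group. The 15 control reads were taken as exact. The counting intervals below allow more for a count of 0, up to 3.69 reads. With that limit the bound is lower than 6.00-fold, to an extent that was not computed. If both reads of each pair were counted, the bound with 3 reads is 3.00-fold. In a single exosome library the counting interval reached 0.256 to 0.271 FPKM, and control library 2, on 3 reads, had 0.260 FPKM. Those 2 levels could not be told apart at the depth of 1 library. The counting intervals of control libraries 1 and 2 began at 0.104 and 0.0536 FPKM and overlapped those of all 3 exosome libraries. That of control library 3 began at 0.269 FPKM and overlapped, narrowly, only that of exosome library 3. The control mean was 0.422 ± 0.186 FPKM (SD, n = 3). The difference in log2(FPKM + 1) was −0.50 ± 0.10 (SE), with a limma adjusted p of 0.0160, on a scale that compresses values this low and on which exosome libraries all at 0 have no spread. It reached 0.0522 without exosome library 2 (limma adjusted p). Of the 680 rows, 65 (9.56%) were at 0 in all exosome libraries and above 0 in all control libraries. Whatever the control values, 87 of the 680 rows were at 0 in all exosome libraries. The same held for 42 of the 189 non-coding rows inside another gene and for 4 of the 15 small RNA rows, Scarna6 included.

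Mir5125, the hairpin in Srrm2, was by far the most strongly covered of the 4 loci. It had 79.2, 60.9 and 133 FPKM in exosome libraries 1, 2 and 3, against 165, 256 and 204 FPKM in control libraries 1, 2 and 3. These values rest on 326, 262 and 541 reads with exosomes and on 517, 881 and 781 reads in control cells. Here exosome library 2 was the lowest and exosome library 3 the highest of its group, which is not the order seen in Snord59a. The libraries of each group differed by more than counting error: the interval of exosome library 3, 122 to 145 FPKM, lay above those of exosome libraries 1 (70.8 to 88.2) and 2 (53.8 to 68.8), and the intervals of the control libraries did not overlap each other. The mean was 91.2 ± 37.7 FPKM with exosomes and 208 ± 45.5 FPKM in control cells (SD, n = 3 each), 2.29-fold lower with exosomes. The log2 difference was −1.24 ± 0.33 (SE, limma adjusted p = 0.0294). Leaving out exosome library 1 or 2 ended the call (limma adjusted p = 0.0807 and 0.0743), as did leaving out control library 2 or 3 (0.0797 and 0.0667).

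Mir1970, the hairpin opposite to Gprasp1, had 2.03, 5.65 and 2.25 FPKM in exosome libraries 1, 2 and 3, against 8.49, 6.84 and 7.16 FPKM in control libraries 1, 2 and 3. These values rest on 11, 32 and 12 reads with exosomes and on 35, 31 and 36 reads in control cells. As in Snord59a, exosome library 2 was the highest of its group, at 75.4% of the control mean, where exosome libraries 1 and 3 were at 27.1% and 29.99%. Its counting interval, 3.87 to 7.98 FPKM, overlapped those of all 3 control libraries, of which the lowest ran from 4.65 to 9.71 FPKM. The counting intervals of the 3 control libraries overlapped each other. The mean was 3.31 ± 2.03 FPKM with exosomes and 7.497 ± 0.876 FPKM in control cells (SD, n = 3 each), 2.26-fold lower with exosomes and 3.50-fold lower without exosome library 2, and the log2 difference was −1.07 ± 0.33 (SE, limma adjusted p = 0.0395). Leaving out exosome library 1 or 3 ended the call (limma adjusted p = 0.1004 and 0.107), as did leaving out control library 1, 2 or 3 (0.1004, 0.0845 and 0.0837), and without exosome library 2 the difference was −1.43 (0.0117).

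**Figure D2:**
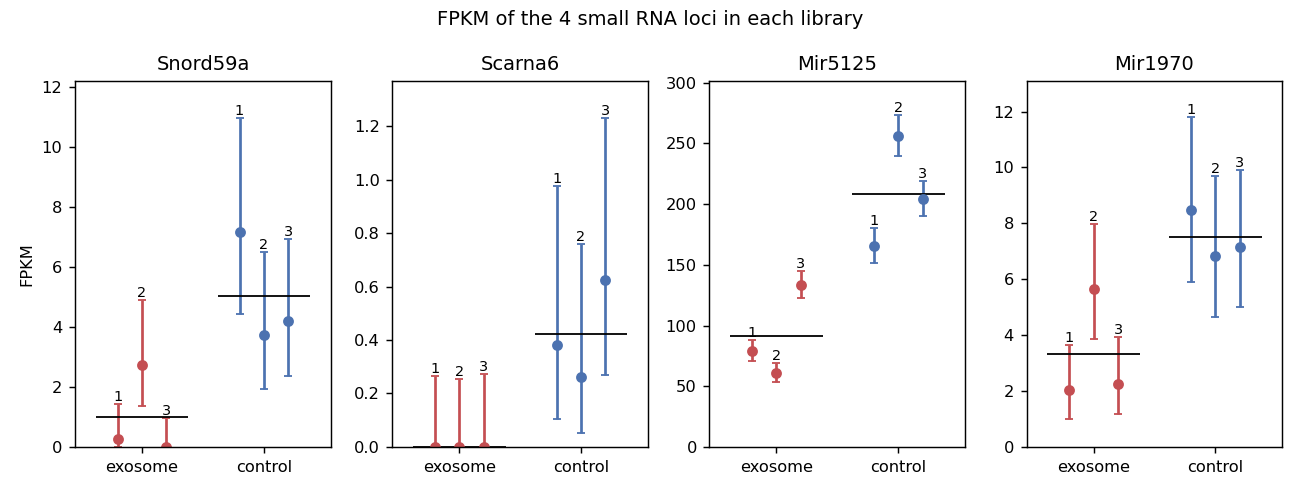
Points give FPKM in each library, numbered by replicate, bars the exact Poisson 95% interval of the reads behind each point, and horizontal lines the group means. In every panel all exosome points lie below all control points, and exosome library 2 is the highest of its group in Snord59a (2.73) and Mir1970 (5.65) but the lowest in Mir5125 (60.9).

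Ordered by FPKM, which is scaled to length, Mir5125 came first, then Mir1970, Snord59a and Scarna6, in the means of both groups. Mir5125 lay above the other loci in every library. Mir1970 was above Snord59a within each of the 6 libraries, although their ranges met: they spanned 2.03 to 5.65 and 0 to 2.73 FPKM with exosomes, and 6.84 to 8.49 and 3.72 to 7.16 FPKM in control cells. Scarna6 was below Snord59a in every control library, and with exosomes both were at 0 in library 3. Within the table, Mir5125 ranked 11 of 680 by its exosome mean and 3 by its control mean, and was first by either among the 189 rows of non-coding classes, pseudogenes included, that lie inside another gene. These are ranks of FPKM, for which the reads of Mir5125 are divided by only 79 bases, and not ranks by number of reads or amount of RNA. Scarna6 ranked 594 by its exosome mean, a place it shared with other rows at 0, and 255 by its control mean.

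Sharing of sequence bears on how firmly reads can be assigned to each locus. No other gene of the GENCODE M21 transcripts contained a run of 25 bases of Snord59a, Scarna6 or Mir5125 on either strand. Snord59a shares at most 18 bases in a row, bases 24 to 41, with Mir677 of the same host. Mir1970 shared runs of at least 25 bases with 3 genes. The miRNA model Gm25374 had 26 bases in a row in common with it, bases 9 to 34, which include the start of the mature strand. The coding gene 1110059G10Rik (29 bases) and a retained-intron transcript of Apeh (25 bases) matched it on the opposite strand. Values for Mir1970 are therefore uncertain, to an extent that was not tested. Only exact runs in annotated transcripts were searched, so unique placement of reads on the other 3 loci is not shown. How the authors treated reads that fit several places, and whether strand was used, is not given in the sources used here. Without strand, reads of Mir1970 and of the unspliced Gprasp1 transcript could not be told apart, and for the other 3 loci, which share the host's strand, reads of unspliced host transcript fall on the same bases. Their part in the differences was not tested.

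The table held 11 further rows of annotated small RNA classes, which puts the 4 loci among 15 in all (9 snoRNAs, 2 scaRNAs, 2 miRNAs, 1 snRNA and 1 miscellaneous RNA). The other 11 are predicted models without a given name. Like the 4 loci, all 11 lay inside another gene, and none of the 16 enclosing genes of the 15 rows had a row of its own. Enclosing genes were on the same strand for 11 of the 15 and on the opposite strand only for 4, Mir1970 among them. Of the other 11 rows, 7 fell, 1 rose and 3 did not pass by limma, against the 43.8% called lower over the table, and their median log2 difference was −1.02. Without exosome library 2 or 3 only 4 of them were called lower, and by limma-voom or with a robust prior and trend 10 were. None of the 11 overlapped between groups, which held for 86.9% of all rows.

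The most strongly covered of these models was Gm24494, a snoRNA inside Rabggtb, a subunit of the enzyme that attaches lipid groups to Rab proteins. It had 16.3, 8.85 and 13.7 FPKM in the exosome libraries, against 29.6, 42.8 and 42.4 FPKM in the control libraries, and its difference of −1.51 ± 0.26 was the closest to that of Snord59a among the 11 models (SE, limma adjusted p = 0.0119). The scaRNA model Gm22009, inside the nuclear import receptor gene Kpna4, had 5.15, 3.54 and 2.22 FPKM with exosomes, against 6.33, 9.43 and 10.6 FPKM in control cells (log2 difference −1.10 ± 0.30, SE, limma adjusted p = 0.0296). It had 39 to 92 reads per exosome library, so reads fell on this scaRNA locus there, whereas Scarna6 had none. Gm25821 inside Cpsf3, Gm25776 inside Gtf2a1 and Gm26461 inside Zfp949 shared with Scarna6 a value of 0 in all exosome libraries, on 20, 11 and 10 control reads over the 3 libraries. Gm22881 inside Hebp1 and Gm26387 inside the ribosomal protein gene Rpl5 fell as well, by 1.21 and 1.02 on the log2 scale (limma adjusted p = 0.0166 and 0.0345). The call of Gm22009 was lost without exosome library 2 or 3 or control library 2 or 3 (limma adjusted p = 0.0682 to 0.0813). That of Gm26387 was lost without any 1 exosome library or control library 1 (limma adjusted p = 0.0693 to 0.0962), and for Gm25776 limma's adjusted p became 0.0554 without exosome library 2 and 0.0516 without exosome library 3.

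The single rise was Gm25604, a snoRNA model opposite to AU040320. It had 2.88, 1.66 and 2.49 FPKM in the exosome libraries, against 0.759, 1.21 and 0.311 FPKM in the control libraries, on 20, 12 and 17 reads with exosomes and 4, 7 and 2 in control cells. The log2 difference was 0.94 ± 0.24 (SE), and limma's adjusted p was 0.0272. The call was lost without exosome library 1 or 3 or control library 1 (limma adjusted p = 0.0761, 0.0780 and 0.0599). The snRNA model Gm23205 inside Rnf14 and the snoRNA models Gm22300 and Gm24608 had differences of −1.27, −1.02 and −0.96 that did not pass (limma adjusted p = 0.0768, 0.0550 and 0.0552). None of 26 listed genes for snoRNA and scaRNA particle proteins and their assembly is in the table. The same holds for 25 genes for miRNA processing and silencing. It also holds for 25 snoRNA host and related genes, 22 of them under that symbol in GENCODE M21. The table has only 680 genes called changed, so these absences give no levels and no result about the lists.

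**Figure D3:**
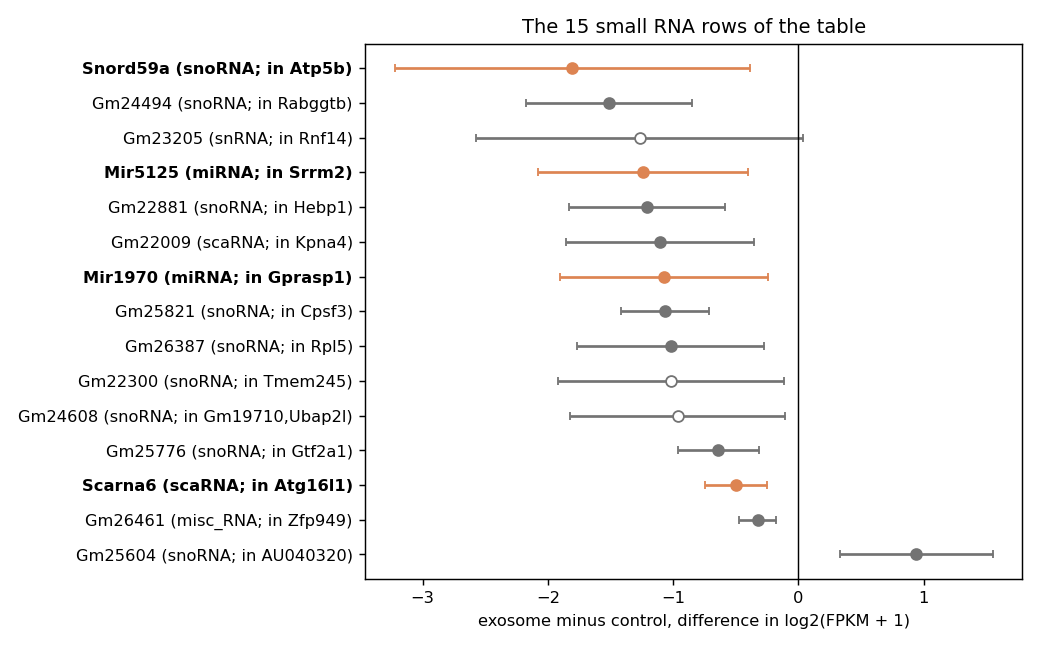
Points give the difference in log2(FPKM + 1), exosome minus control, of the 15 small RNA rows with limma's 95% interval, with the host in brackets; the 4 named loci are orange and open points did not pass. Of the rows, 14 lie below 0, from −1.80 for Snord59a to −0.33 for Gm26461, and Gm25604 alone lies above, at 0.94. Over all 680 rows 503 were lower, as were 175 of the 189 non-coding rows inside another gene.

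The genes most like each locus were sought by Pearson's r of log2(FPKM + 1) over the 6 libraries, among the 74 or 75 other named genes that averaged 1 FPKM or more. All rows were selected as changed, so the group difference they share enters every r. Snord59a and Mir1970 were each other's closest match (r = 0.987), and r of their deviations from the group means, which leaves that difference out, was 0.959. Both are highest in exosome library 2 within the exosome group and in control library 1 within the control group. They lie on different chromosomes, and their values share libraries and depth. The next were Tbx3os1, an antisense RNA (r = 0.878 with Snord59a and 0.894 with Mir1970), then the membrane protein gene Lrrc15 for Snord59a (0.825) and the receptor gene Tnfrsf18 for Mir1970 (0.838). With the group difference left out, r was 0.688 and 0.808 for Tbx3os1, 0.226 for Lrrc15 and 0.322 for Tnfrsf18. Mir5125 was closest to Rnf207, Ovgp1 and Slc9a5 (0.956, 0.944 and 0.937), which averaged 1.17, 1.196 and 2.09 FPKM with exosomes and 2.43, 2.57 and 4.34 FPKM in control cells. Scarna6 was closest to the amino acid transporter gene Slc7a3, the antisense RNA Airn and the protocadherin gene Pcdhb21 (0.981, 0.939 and 0.935). With the group difference left out, r with Mir5125 was 0.851 for Rnf207, 0.953 for Ovgp1 and 0.773 for Slc9a5, and r with Scarna6 was 0.894 for Slc7a3, 0.489 for Airn and 0.456 for Pcdhb21. Scarna6 was at 0 in every exosome library and has no deviation there. Its variation in these r values comes only from the 3 control libraries, with 15 reads in all, so they are not like those of Mir5125.

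**Figure D4:**
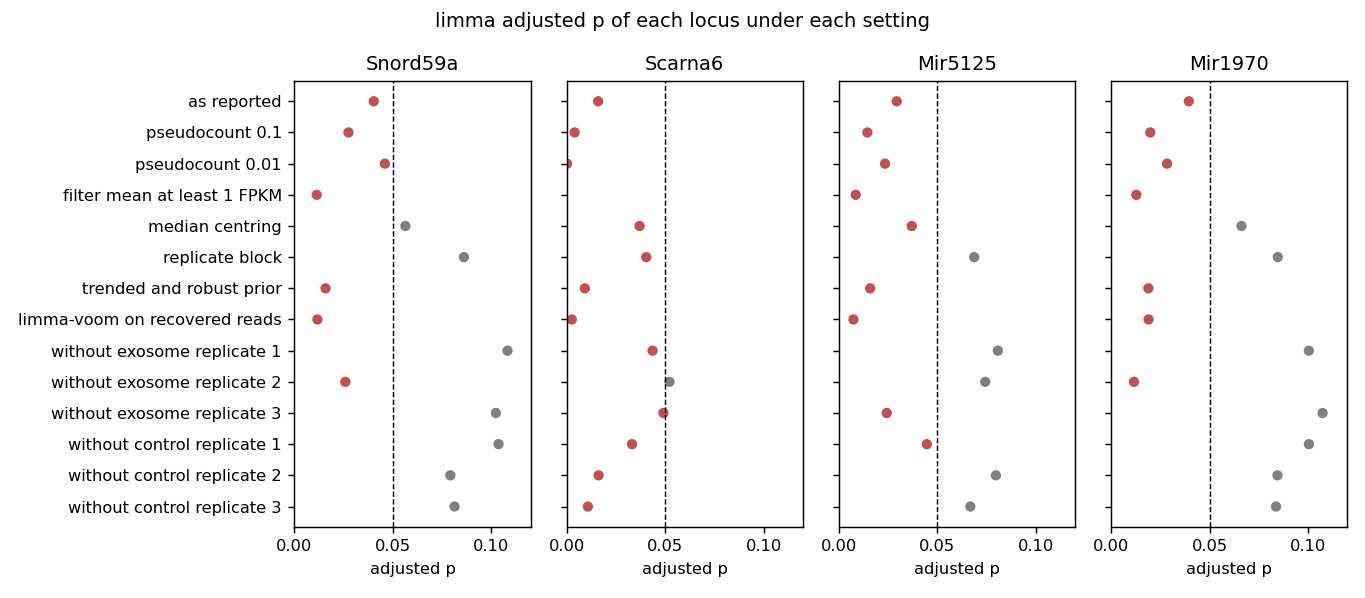
Points give the limma adjusted p of each locus as reported and under each other setting (red below the dashed line at 0.05, grey above it). Scarna6 has 1 grey point, at 0.0522, and no point under the 1 FPKM filter, and Snord59a and Mir1970 have 7 each, up to 0.108 and 0.107.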

How the data were processed

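Trizol was used to extract RNA and a SMARTer mRNA kit to build the libraries, per the labels' protocols. The deposited FPKM values, 1 column per library, cover 680 genes that the authors had called changed, per the file name. Aligner, counter, annotation, caller and threshold are not given in the sources used here. Groups and replicate numbers came from the sample titles. GENCODE M21 (GRCm38) matched 672 of the 680 identifiers and gave positions, classes and exon lengths. Reads were recovered from FPKM, exon length and the value of 1 read, whole within 0.02 in all libraries for 661 rows.

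Two-sided tests came from limma 3.58.1 in R 4.3.3, fitted to log2(FPKM + 1) with no covariate beside the group. P-values were adjusted by Benjamini-Hochberg over all 680 rows, and a gene was called below 0.05. The scripts were tested on simulated data. Exact permutation tests and Poisson intervals used scipy 1.17.1. Folds are ratios of mean FPKM unless stated. The named genes were the 4 loci, genes overlapping them, all other rows of small RNA classes, 3 genes of most similar pattern per locus, and members of the protein and host lists. Unnamed and clone-named models, pseudogenes and Y-linked genes were left out of the pattern search. Loci and lists were chosen with earlier results of these data known. The alternatives were other pseudocounts, a 1 FPKM filter, median centring, the replicate number as a block, a robust prior with a trend, limma-voom on recovered reads, and leaving out each library.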

Additional observations from a re-analysis of the deposited data

How the results depend on the processing

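All 4 loci were lower with exosomes under every setting run, but most of these settings could not have changed the direction. Since the groups did not overlap at any of the 4 loci, no other pseudocount or left-out library can reverse it. The filter, the block and the prior leave the difference itself as it was. Snord59a, Mir5125 and Mir1970 passed with a pseudocount of 0.1 or 0.01, under a filter of 1 FPKM on the mean, with a robust prior and trend and by limma-voom on recovered reads, and Scarna6 under the same settings apart from the 1 FPKM filter, which removes it. Snord59a and Mir1970 were no longer called after centring on the median of the selected rows, a shift of 0.15 on the log2 scale (limma adjusted p = 0.0563 and 0.0662). A replicate block ended the calls of Snord59a, Mir5125 and Mir1970 (limma adjusted p = 0.0860, 0.0687 and 0.0846). The main fit has no block because the labels do not say what a shared number means. Between groups, the deviations of libraries 1, 2 and 3 correlated at −0.135, 0.0767 and −0.222. With the block the differences were the same and the SE changed little. It went from 0.557 to 0.580 for Snord59a, from 0.330 to 0.336 for Mir5125 and from 0.327 to 0.336 for Mir1970. A block also leaves fewer residual degrees of freedom from which the spread is estimated. Why the block ended these calls was not tested. Leaving out 1 library gave limma adjusted p values of 0.0258 to 0.108 for Snord59a, 0.0108 to 0.0522 for Scarna6, 0.0243 to 0.0807 for Mir5125 and 0.0117 to 0.107 for Mir1970, with fewer samples. The 403 genes called over the table became 611 with a pseudocount of 0.01, 624 by limma-voom, 131 with the 1 FPKM filter, where fewer genes were tested, 201 with the replicate block and 164 to 356 without 1 library. After median centring 112 genes were called lower and 212 higher, against 298 and 105 before. With the replicate block, 5 of the 11 other small RNA rows were called lower, against 7 without it, and Gm25604 was no longer called (limma adjusted p = 0.0764). The order of the loci by log2 difference depends on the pseudocount: with 0.01 it was −5.34 for Scarna6 and −4.63 for Snord59a. Depth limits Scarna6, with 15 reads in all, and Snord59a, with 60, more than Mir5125.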
